A study of Mus musculus with 6 samples.

Results

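The 10 genes described here mark T cells and the lymphocytes that live within the gut epithelium, and they were read by gene name from RNA-seq of adenomas, which the study places in the small intestine. They are *Cd3d*, *Cd3e* and *Cd3g*, *Cd4*, *Cd8a* and *Cd8b1*, *Gzma* and *Gzmb*, *Itgae* and *Foxp3*, and all 10 were found among the 48440 genes of the files. The libraries were 3 of ApcMin, PCdel adenomas (labelled ApcMin.PCdel: QC3, QC8 and QC10) and 3 of ApcMin, WT adenomas (labelled ApcMin: QC4, QC5 and QC6), from mice on a C57BL/6 background, all older than 42 days. Every mouse carried the ApcMin allele and, by the study's methods, 1 Rosa26 iDTA allele, which encodes diphtheria toxin A behind a floxed stop. PCdel mice carried in addition Defa4-Cre, an IRES-Cre knock-in at the *Defa4* locus made in 129/svJ embryonic stem cells, so toxin expression was directed to the Paneth cell (PC) lineage. Cre was absent from the WT group, so effects of the Cre allele and of PC loss cannot be told apart. The study's methods state that experiments used both sexes in about equal parts. The sources used here do not give where along the small intestine the adenomas lay, how many adenomas or mice went into a library, or the sex of the mice behind each library. The p-values below therefore measure the spread between these libraries.

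T cells read antigen through the T cell receptor, whose signal enters the cell through the CD3 chains. CD4 and CD8 are the coreceptors that bind MHC class II and class I molecules, respectively. In the small intestine many T cells sit between epithelial cells as intraepithelial lymphocytes (IELs). Many of these carry CD8 as a homodimer of the alpha chain, are armed with granzymes, and are held in place by the alphaE integrin that binds E-cadherin. FOXP3 is the transcription factor that defines regulatory T cells. Adenomas are whole tissue, so fewer cells of a type and less RNA per cell cannot be told apart in these values.

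Levels are given as FPKM, a measure per transcript length and library size that can be set side by side between genes. Aligned sequence behind the libraries was estimated at between 5.407 and 5.876 gigabases. It was inferred from the most common ratio of read coverage to FPKM, shared by 31.46% to 31.8% of genes above 1 FPKM. The estimate assumes the usual definition of FPKM. The Paneth cell genes *Defa21*, *Defa22* and *Lyz1* were each lower in every PCdel library than in every WT library, with 1022 to 1193 FPKM against 1930 to 2915 FPKM for the 3 genes summed. The Y-linked genes *Ddx3y*, *Eif2s3y*, *Kdm5d* and *Uty* summed to 37.9 FPKM in WT library QC6 and 41.9 FPKM in PCdel library QC3, so the libraries high in these transcripts were 1 per genotype. The sum was 1.52 FPKM in WT library QC5, a low signal, and 0.254 FPKM in QC4, 0.0038 FPKM in QC8 and 0.070 FPKM in QC10. WT library QC6 stood apart over all genes, with a median absolute log2 difference of 0.21 to 0.26 to each other library, against 0.11 to 0.18 among the others. Values without QC6 stand beside those that it moved most, in comparisons added after the data were seen.

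The promoters of the CD3 chains and the granzymes are shown because the granzymes carried the highest values of the 10 genes, the CD3 chains are the components that T cells share, and all 5 were lowest in the same library, QC4. In the GENCODE M21 annotation *Cd3g* and *Cd3d* lie head to head on chromosome 9 with 1354 bases between them, and *Cd3e* lies 11400 bases beyond *Cd3d*. The positions of *Cd3d* and *Cd3e* printed further below are those of the deposited data and differ slightly from that annotation. The sequences are from RefSeq (GRCm38.p6), run from 250 bases before to 50 bases after the start that RefSeq gives the gene, and are written 5′ to 3′ on the strand of the gene. Capitals mark matches on either strand to core letters of 3 families of transcription factors. For the RUNX family TGTGGT was searched. For the ETS family the letters searched were AGGAAG. For the family named after the letters it binds, here called the GATA family, the search was for AGATAA. Each window printed held matches to 1 family only, so no matches of different families overlap.
*Cd3g* (chr9:44980382-44980681, minus strand): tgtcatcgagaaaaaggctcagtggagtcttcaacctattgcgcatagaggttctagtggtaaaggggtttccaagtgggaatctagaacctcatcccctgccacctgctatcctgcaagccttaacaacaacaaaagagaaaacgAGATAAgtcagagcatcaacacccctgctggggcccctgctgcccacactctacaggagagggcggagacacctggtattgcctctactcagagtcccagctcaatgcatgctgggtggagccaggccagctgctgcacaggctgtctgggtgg
*Cd3d* (chr9:44981536-44981835, plus strand): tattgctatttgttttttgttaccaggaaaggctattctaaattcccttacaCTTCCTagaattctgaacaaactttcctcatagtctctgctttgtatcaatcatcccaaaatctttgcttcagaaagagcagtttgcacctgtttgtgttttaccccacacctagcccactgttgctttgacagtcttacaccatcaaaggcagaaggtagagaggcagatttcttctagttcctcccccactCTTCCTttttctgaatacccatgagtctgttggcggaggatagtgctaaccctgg
*Cd3e* (chr9:45009562-45009861, minus strand): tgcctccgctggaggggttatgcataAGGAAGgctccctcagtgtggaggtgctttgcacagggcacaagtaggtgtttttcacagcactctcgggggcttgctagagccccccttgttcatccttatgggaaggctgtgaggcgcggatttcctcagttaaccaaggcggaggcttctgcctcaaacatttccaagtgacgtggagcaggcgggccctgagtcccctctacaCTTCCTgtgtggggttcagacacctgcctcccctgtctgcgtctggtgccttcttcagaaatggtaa
*Gzma* (chr13:113100932-113101231, minus strand): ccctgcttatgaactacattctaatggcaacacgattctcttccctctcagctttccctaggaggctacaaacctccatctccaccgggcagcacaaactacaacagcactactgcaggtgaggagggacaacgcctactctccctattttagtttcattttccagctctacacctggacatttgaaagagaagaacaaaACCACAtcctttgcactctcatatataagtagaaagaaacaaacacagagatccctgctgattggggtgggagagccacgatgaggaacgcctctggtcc
*Gzmb* (chr14:56262285-56262584, minus strand): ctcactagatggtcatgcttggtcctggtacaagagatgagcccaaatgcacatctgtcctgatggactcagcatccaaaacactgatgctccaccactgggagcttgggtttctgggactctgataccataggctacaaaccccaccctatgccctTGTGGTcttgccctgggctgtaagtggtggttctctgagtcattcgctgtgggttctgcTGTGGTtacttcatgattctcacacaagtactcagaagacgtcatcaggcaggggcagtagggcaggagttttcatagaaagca
RefSeq windows matched 7 of the 10 genes, with 8 windows since *Foxp3* has 2. The ETS letters occurred in windows of 3 of these 7 genes, *Cd3d*, *Cd3e* and *Foxp3*, and in 35.4% of all 32851 promoter windows of this length. The RUNX letters occurred in 2 of the 7, *Gzma* and *Gzmb*, against 16.8% of all windows, and the GATA family letters in 2, *Cd3g* and *Foxp3*, against 11.2%. The letters are a description of the windows and mark no bound site.

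The CD3 chains gave a low signal that was present in every library. *Cd3g* (ENSMUSG00000002033.13, chromosome 9, 44969572 to 44980431 in GRCm38), which encodes the gamma chain, was at 3.51, 5.25 and 11.3 FPKM in WT libraries QC4, QC5 and QC6 and at 6.45, 5.73 and 7.72 FPKM in PCdel libraries QC3, QC8 and QC10. *Cd3e* (chromosome 9, 44998743 to 45009590), the epsilon chain, was at 1.79, 3.04 and 5.12 FPKM in the WT libraries and at 3.36, 3.21 and 4.08 FPKM in the PCdel libraries, in the same order. *Cd3d* (chromosome 9, 44981793 to 44987052), the delta chain, was at 1.53, 2.13 and 2.78 FPKM in the WT libraries and at 2.21, 1.92 and 3.01 FPKM in the PCdel libraries. For all 3 chains QC4 was the lowest library, and for *Cd3g* and *Cd3e* QC6 was the highest, so the WT libraries bracketed the PCdel libraries in these 2 chains. The summed FPKM of the chains was 12.1 ± 6.35 (SD, n = 3 libraries) in WT adenomas and 12.6 ± 2.03 (SD, n = 3) in PCdel adenomas. The WT libraries spanned 2.81-fold in this sum and the PCdel libraries 1.36-fold. Without QC6 the WT mean was 8.63 FPKM and the WT libraries spanned 1.52-fold. The difference of the means, PCdel minus WT, was 0.42 FPKM with all libraries, 3.94 FPKM without QC6 and -2.23 FPKM without QC4. It was also below 0 without QC5 (-0.44 FPKM) and without QC10 (-0.70 FPKM), so its direction rested on single libraries.

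The granzymes, serine proteases of cytotoxic granules, were the most abundant of the 10 genes. *Gzma* (ENSMUSG00000023132.7, chromosome 13, 113093825 to 113100979) was at 21.5, 45.7 and 104.8 FPKM in WT libraries QC4, QC5 and QC6, which averaged 57.3 ± 42.9 FPKM (SD, n = 3). In PCdel libraries QC3, QC8 and QC10 it was at 79.4, 37.1 and 64.0 FPKM, which averaged 60.2 ± 21.4 FPKM (SD, n = 3). *Gzmb* (chromosome 14, 56258856 to 56262260) was at 6.50, 10.6 and 22.8 FPKM in the WT libraries and at 17.1, 9.09 and 14.4 FPKM in the PCdel libraries. Both genes had QC4 as the lowest and QC6 as the highest library, and QC3 came second in both. Within the WT group alone *Gzma* spanned 4.88-fold and *Gzmb* 3.51-fold, and with all libraries their group means lay close together. Without QC6 the WT mean of *Gzma* was 33.6 FPKM and its 2 remaining WT values spanned 2.13-fold. The log2 fold change of *Gzma*, 0.28 with all libraries, was 0.85 without QC6 and -0.27 without QC4. That of *Gzmb* was 0.59 without QC6, -0.24 without QC4 and -0.034 without QC3. *Gzma* shares 0% of its 31-base words with transcripts of other genes in GENCODE's annotation, and *Gzmb* shares 1.35%, all with *Gzmc*.

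The coreceptor genes *Cd4* and *Cd8a* had the largest log2 fold changes among the 10 genes, though neither passed the test given below. *Cd8a* (ENSMUSG00000053977.13, chromosome 6, 71373427 to 71379173), which encodes the alpha chain, was at 1.58, 2.23 and 4.79 FPKM in WT libraries QC4, QC5 and QC6 and at 4.32, 2.91 and 4.53 FPKM in PCdel libraries QC3, QC8 and QC10. *Cd4* (ENSMUSG00000023274.14, chromosome 6, 124864692 to 124888221), the coreceptor of helper and regulatory T cells, was at 1.27, 1.36 and 2.34 FPKM in the WT libraries and at 2.19, 2.30 and 2.46 FPKM in the PCdel libraries. In both genes QC4 and QC5 were below every PCdel library and QC6 was not, so the groups overlapped through 1 WT library. *Cd8b1* (chromosome 6, 71322788 to 71337494), the beta chain of the CD8 heterodimer, was at 0.489, 1.27 and 1.06 FPKM in the WT libraries and at 1.28, 0.651 and 1.15 FPKM in the PCdel libraries. Its read coverage was between 2.79 and 7.16 bases deep, and its groups overlapped fully. *Cd8b1* and *Cd8a* are neighbours, with 35932 bases between them, and 8.40% of the 31-base words of *Cd8b1* occur in other genes.

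*Itgae* (ENSMUSG00000005947.11, chromosome 11, 73090583 to 73147446), the alphaE integrin chain (CD103) of IELs and of some dendritic cells, was at 2.54, 4.17 and 5.002 FPKM in WT libraries QC4, QC5 and QC6 and at 4.62, 3.67 and 3.85 FPKM in PCdel libraries QC3, QC8 and QC10. The PCdel libraries lay within the WT range. The intronless gene *Haspin* lies inside *Itgae* on the other strand and shares no exonic base with it. *Foxp3* (ENSMUSG00000039521.12, chromosome X, 7579676 to 7595243) was at 0.454, 0.336 and 0.439 FPKM in the WT libraries and at 0.711, 0.433 and 0.259 FPKM in the PCdel libraries. The highest and the lowest of the 6 values were both from PCdel libraries, and the coverage of the gene was between 0.629 and 1.64 bases. In GENCODE M21, parts of *Foxp3* exons are also covered by *Ccdc22*, *Flicr* and other genes, and 26.4% of its 31-base words occur elsewhere. That annotation starts the gene at base 7573644, before the start given above, so these shares may differ for the gene as quantified. The strand setting of the quantification is not given in the sources used here. The assignment of *Foxp3* reads is therefore uncertain.

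**Figure D1:**
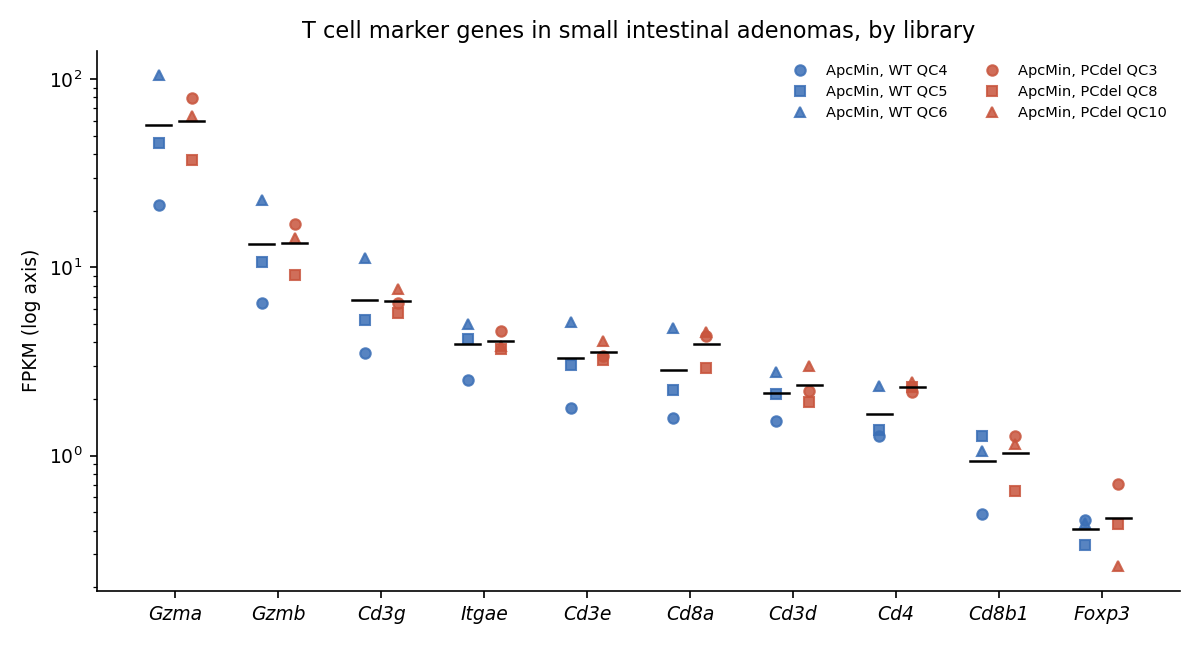
FPKM (log axis) of the 10 T cell marker genes, ordered by mean level, in each library. Blue symbols are the 3 ApcMin, WT libraries, red symbols the 3 ApcMin, PCdel libraries, and black bars are group means; *Gzma* runs from 21.5 to 104.8 FPKM within the WT group alone, and in every gene the groups overlap.

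Ordered by mean FPKM over the 6 libraries, the genes ran from *Gzma* (58.7) through *Gzmb* (13.4), *Cd3g* (6.66), *Itgae* (3.97), *Cd3e* (3.43), *Cd8a* (3.39), *Cd3d* (2.26), *Cd4* (1.99) and *Cd8b1* (0.983) to *Foxp3* (0.439). Between neighbours in this order, the upper gene was higher in 6 of 6 libraries for 6 of the 9 pairs. *Itgae* exceeded *Cd3e* in 4 of 6 libraries, *Cd3e* exceeded *Cd8a* in 4 of 6, and *Cd3d* exceeded *Cd4* in 5 of 6, so the order within these pairs was not fixed. The ranges over libraries overlapped for all 9 pairs of neighbours.

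The genotypes were compared with limma on log2(FPKM + 1), over the 14240 genes that averaged 1 FPKM or more. The p-values were adjusted over all of these by the method of Benjamini and Hochberg, and the threshold was 0.05. By this filter 8 of the 10 genes were tested. *Cd8b1* and *Foxp3* lay below it, and their values are from the same fit without the filter. Of the 8 tested genes, 0 passed the adjusted threshold (limma), as against 0.0140% of all genes tested, and 0 had an unadjusted p under 0.05, as against 3.38% of all genes. The depleted Paneth cell genes did not pass it either, with adjusted p = 0.309 (*Defa21*), 0.309 (*Defa22*) and 0.979 (*Lyz1*) by limma. *Defa21* had a log2 fold change of -2.98, so a gene that did not pass is not shown to be unchanged. The groups overlapped in all 10 genes, while they did not overlap in 7.54% of all genes tested. With 3 libraries against 3, p = 0.1 is the lowest value that an exact permutation test of 1 gene can reach.

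The member nearest to a difference was *Cd4*, with a log2 fold change of 0.34 (standard error 0.17, 95% interval -0.061 to 0.74, limma p = 0.0845, adjusted p = 1.0; exact two-sided permutation test, p = 0.3). *Cd8a* had the largest log2 fold change of the 8, 0.42 (standard error 0.31, 95% interval -0.32 to 1.15, adjusted p = 1.0 by limma; exact two-sided permutation test, p = 0.4). That interval runs from 0.801-fold to 2.23-fold on the FPKM + 1 scale. *Gzma*, at 0.28, had the widest interval, -1.07 to 1.63, or from 0.477-fold to 3.09-fold. The CD3 chains were at 0.11 (*Cd3d*), 0.14 (*Cd3e*) and 0.11 (*Cd3g*), *Gzmb* at 0.15 and *Itgae* at 0.070. For *Cd3e* the 95% interval was -0.51 to 0.80. Without the filter *Cd8b1* was at 0.074 (95% interval -0.44 to 0.59) and *Foxp3* at 0.047 (95% interval -0.25 to 0.34), with adjusted p = 0.996 and adjusted p = 0.995 by limma. For *Gzma* a 2-fold difference in either direction lies within its interval, so these libraries do not show that the genotypes were alike.

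**Figure D2:**
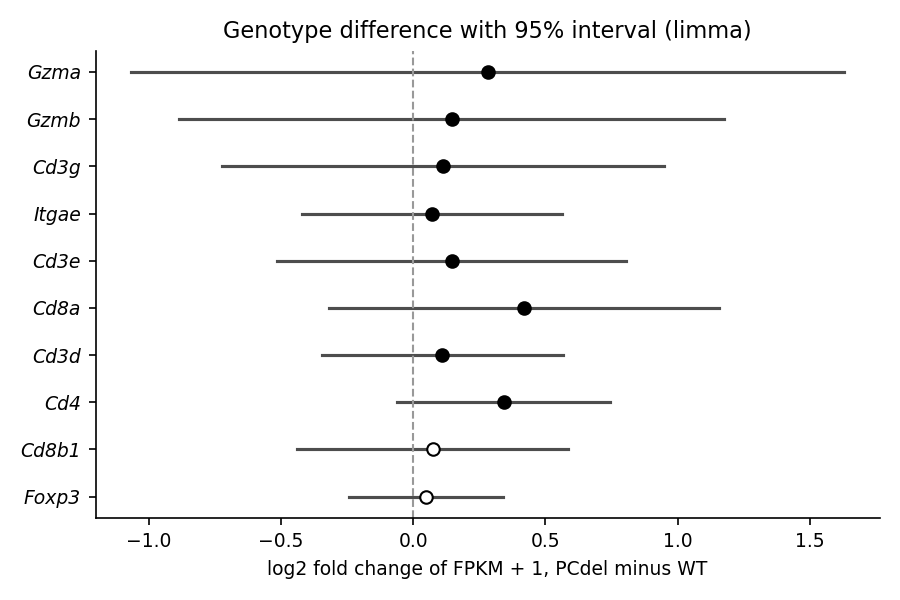
Difference between genotypes for each gene as the log2 fold change of FPKM + 1 (ApcMin, PCdel minus ApcMin, WT), with the 95% interval from limma. Open circles are *Cd8b1* and *Foxp3*, from the fit without the filter on low values; all 10 intervals include 0, and that of *Gzma* is the widest, from -1.07 to 1.63.

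All 8 tested genes had a log2 fold change above 0, as did 63.1% of all genes tested. Their median was 0.14, beside 0.042 over all genes tested. The 8 genes share the same 6 libraries and largely the same cells, so their direction counts as few independent observations. For *Cd3g* the direction also depended on the scale, since its mean FPKM was 6.68 in WT and 6.63 in PCdel adenomas while its log2 fold change of FPKM + 1 was above 0. The count above 0 was 6 of 8 without PCdel library QC3, 7 of 8 without QC10, and 8 of 8 without QC5, QC6 or QC8. Without QC4 only 2 of the 8 genes (*Cd4* and *Cd8a*) were above 0, where 67.0% of all genes were, and the median of the 8 was -0.14. Without QC6 all 8 were above 0 with a median of 0.52, and 3 of them had an unadjusted p under 0.05, as did 5.76% of all genes. These 3 were *Cd4* (log2 fold change 0.52), *Cd8a* (0.75) and *Cd3g* (0.52), and 0 of the 8 passed after adjustment (smallest adjusted p = 0.7485 by limma). In that fit the groups did not overlap in 4 genes, *Cd3e*, *Cd3g*, *Cd4* and *Cd8a*, where this was so for 23.7% of all genes. With a score of the Y-linked genes as a covariate the median was 0.17 and 0 genes passed. With quantile normalization *Itgae* was below 0, at -0.0043.

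The spread between libraries of one genotype was larger in these genes than in the median gene. Over the 8 tested genes the median SD of log2(FPKM + 1) was 0.58 among WT libraries and 0.21 among PCdel libraries, beside 0.18 and 0.14 over all genes tested. Without QC6 the WT value was 0.35 for the 8 genes and 0.079 for all genes. The median standard error of the log2 fold change was 0.29, beside 0.14 over all genes. QC4 was the lowest of the 6 libraries in 9 of the 10 genes, all but *Foxp3*, as against 10.9% of all genes tested. QC6 was the highest in 6 of the 10, *Cd3e*, *Cd3g*, *Cd8a*, *Gzma*, *Gzmb* and *Itgae*, as against 12.5% of all genes. This order of libraries was noticed in the values and then counted. *Foxp3* did not follow it. *Cd3d*, *Cd4* and *Cd8b1* followed it at the low end only, with QC10 the highest library for *Cd3d* and *Cd4* and QC3 for *Cd8b1*.

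**Figure D3:**
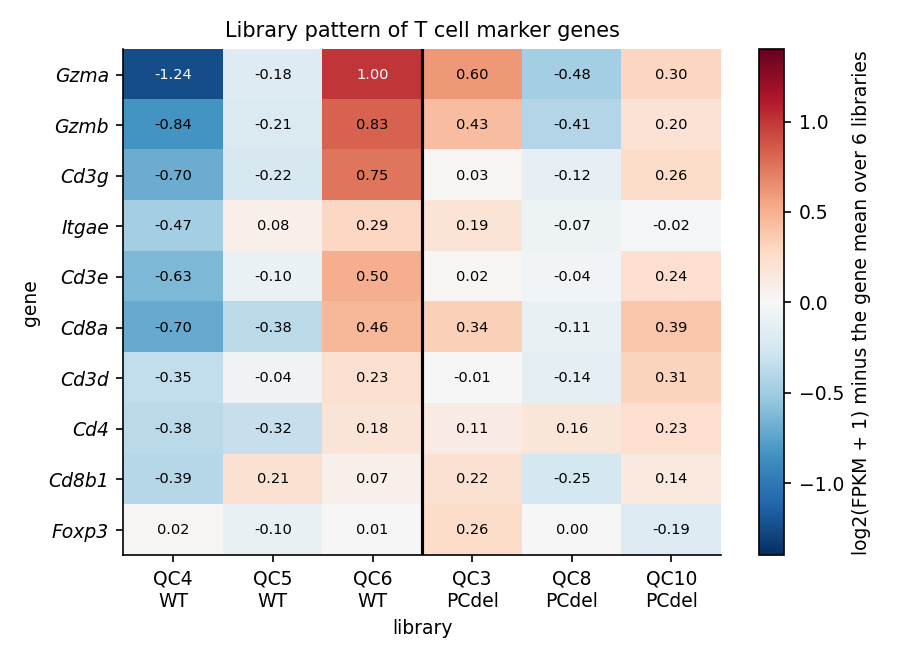
log2(FPKM + 1) of each gene (rows) in each library (columns), minus the mean of the gene over the 6 libraries, with WT libraries left and PCdel libraries right of the black line. QC4 is below the mean in 9 of 10 genes, down to -1.24 for *Gzma*, and QC6 is above it in all 10, up to 0.998 for *Gzma*.

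The libraries were ordered in this way at both ends in some lists of related genes, and in part or not at all in others. Of 18 tested genes for T cell receptor chains and proximal signalling, 12 had QC4 as the lowest and 9 had QC6 as the highest library. Of 7 tested cytotoxic genes, these counts were 6 and 5. Of 18 tested IEL homing, residency and partner genes, they were 9 and 12. Of 5 tested regulatory T cell genes, they were 1 and 0, and of 5 B cell and follicle genes 0 and 1. Of 4 helper T cell genes, they were 2 and 0, and of 5 natural killer and innate lymphoid genes 2 and 0. Of 6 dendritic cell and macrophage genes, they were 3 and 0, and of 6 pan-leukocyte genes also 3 and 0. QC4 was the lowest library in 10.9% of all genes tested. In the helper, natural killer, dendritic cell and pan-leukocyte lists the low end of the order thus recurred without the high end. *Ccl5*, a chemokine of effector T cells, was at 14.5, 33.3 and 64.1 FPKM in WT libraries QC4, QC5 and QC6 and at 41.3, 26.1 and 47.8 FPKM in PCdel libraries QC3, QC8 and QC10. Its lowest and highest libraries were those of *Gzma*. *Ptprc*, which encodes the leukocyte protein CD45, was at 4.51, 5.46 and 8.75 FPKM in the WT libraries and at 8.03, 8.79 and 7.10 FPKM in the PCdel libraries. The ratio of the summed CD3 chains to *Ptprc* ran from 1.52 to 2.19 in the WT libraries and from 1.24 to 2.08 in the PCdel libraries. Its span was 1.45-fold in WT, narrower than that of the CD3 sum, and 1.69-fold in PCdel, wider than that of the sum. *Epcam*, an epithelial adhesion protein, was at 948.05, 960.02 and 735.07 FPKM in the WT libraries and at 799.19, 835.65 and 1001.5 FPKM in the PCdel libraries, lowest in QC6. The part of the share of leukocytes and epithelium in the library order was not tested.

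Ratios between members set the make-up of the T cell signal apart from its amount. The ratio of *Gzma* to *Gzmb* was 3.30, 4.29 and 4.60 in WT libraries QC4, QC5 and QC6 and 4.65, 4.08 and 4.44 in PCdel libraries QC3, QC8 and QC10, so it spanned 1.41-fold while *Gzma* itself spanned 4.88-fold. The ratio of *Gzma* to the summed CD3 chains was 4.33 ± 1.16 (SD, n = 3) in WT adenomas and 4.78 ± 1.64 (SD, n = 3) in PCdel adenomas. That of *Itgae* to the CD3 chains was 0.344 ± 0.0738 (SD, n = 3) and 0.327 ± 0.0629 (SD, n = 3), respectively. The differences in both were smaller than the spread between libraries, and both turned with 1 library left out. For *Gzma* the difference, PCdel minus WT, was 0.45 with all libraries, -0.46 without QC3, -0.14 without QC4 and 1.13 without QC8. For *Itgae* it was -0.017 with all libraries, 0.017 without QC10, 0.011 without QC5 and -0.059 without QC6.

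*Cd8b1* was at a fraction of *Cd8a* in every library, with a ratio of 0.366 ± 0.181 (SD, n = 3) in WT adenomas and 0.258 ± 0.036 (SD, n = 3) in PCdel adenomas. WT library QC5 stood at 0.569 and the other libraries between 0.221 and 0.309. *Cd4* stood below *Cd8a* in all 6 libraries, at a ratio of 0.635 ± 0.158 (SD, n = 3) in WT and 0.614 ± 0.155 (SD, n = 3) in PCdel adenomas. The ratio of *Foxp3* to *Cd4* was 0.264 ± 0.0862 (SD, n = 3) and 0.206 ± 0.111 (SD, n = 3), and ranged from 0.105 in QC10 to 0.357 in QC4. In each of these 3 ratios the groups overlapped. With each library omitted, the difference ran from -0.18 to -0.0068 for *Cd8b1* to *Cd8a* (nearest 0 without QC5), from -0.11 to 0.064 for *Cd4* to *Cd8a* (above 0 without QC3, QC4 or QC10) and from -0.12 to -0.0077 for *Foxp3* to *Cd4* (nearest 0 without QC10).

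Of the 12 sums and ratios computed, the groups did not overlap in 1, that of *Cd8a* to the summed CD3 chains. Among single genes they did not overlap in 7.54% of all genes tested, so 1 of 12 does not stand out. It was 0.231, 0.214 and 0.2497 in WT libraries QC4, QC5 and QC6 and 0.359, 0.268 and 0.306 in PCdel libraries QC3, QC8 and QC10. The difference of the means was 0.079, and leaving out any 1 library gave differences of 0.055 to 0.101. This ratio was chosen after the values were seen and has no test. The ratio of *Cd4* to the CD3 chains was 0.146 ± 0.0345 (SD, n = 3) in WT and 0.187 ± 0.0232 (SD, n = 3) in PCdel adenomas, with overlap through WT library QC4. *Cd8a* and *Cd4* are also made by some dendritic cells. In the dendritic cell and macrophage list 6 of 6 tested genes had a log2 fold change above 0, as did 63.1% of all genes tested. Of the 6, 1 (*Adgre1*) had an unadjusted p under 0.05, as did 3.38% of all genes, and 0 passed the adjusted threshold (limma). The 11 genes of that list summed to 24.6 to 25.7 FPKM in the WT libraries and to 26.9 to 34.3 FPKM in the PCdel libraries. The highest genes in that sum were *Csf1r* and *Cd68*, with means of 6.99 and 6.17 FPKM in WT and 8.63 and 6.58 FPKM in PCdel libraries. How often sums of other genes separate the groups was not computed. In that list *Xcr1*, a marker of cross-presenting dendritic cells, averaged 0.237 FPKM in WT and 0.328 FPKM in PCdel libraries. *Clec9a*, another marker of these cells, went the other way, at 0.416 FPKM in WT and 0.380 FPKM in PCdel libraries. The part of these cells in the *Cd8a* and *Cd4* values was not tested.

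**Figure D4:**
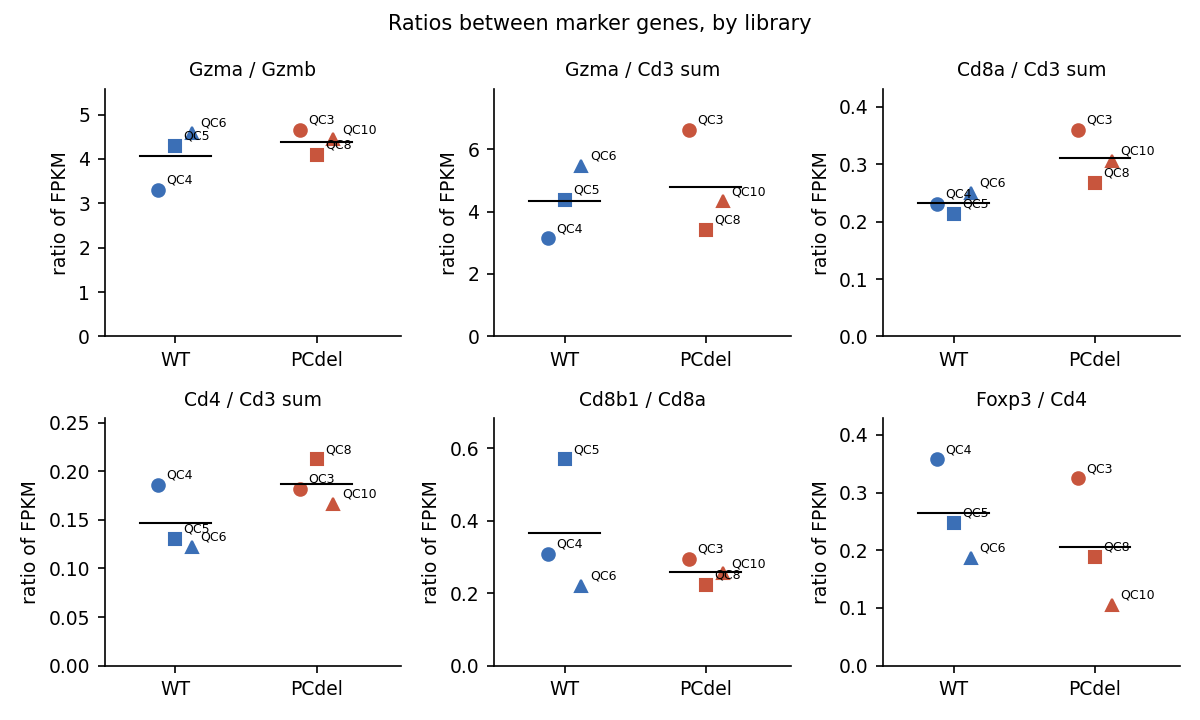
Ratios of FPKM between marker genes in each library (WT left, PCdel right; black bars are group means; Cd3 sum is *Cd3d*, *Cd3e* and *Cd3g* added). The ratio of *Cd8a* to the CD3 sum is 0.214 to 0.2497 in WT and 0.268 to 0.359 in PCdel libraries, and the other 5 ratios overlap between genotypes.

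Genes that act with the members were read from lists. Among 25 genes of T cell receptor chains and proximal signalling, 18 were tested and 0 passed the adjusted threshold in either direction (limma). Of these 1 had an unadjusted p under 0.05, *Lcp2*, which encodes the adaptor SLP-76. *Lcp2* was at 2.11, 2.42 and 2.10 FPKM in WT libraries QC4, QC5 and QC6 and at 3.41, 3.37 and 2.75 FPKM in PCdel libraries QC3, QC8 and QC10 (log2 fold change 0.38, standard error 0.11, adjusted p = 1.0 by limma; p = 0.1 in the exact two-sided permutation test). *Lcp2* is also made by myeloid cells, mast cells and platelets. The costimulatory receptor *Icos* was below the filter and was at 0.382, 0.383 and 0.393 FPKM in the WT libraries and at 0.602, 0.818 and 0.401 FPKM in the PCdel libraries, without overlap. *Lcp2* and *Icos* were 2 of the 25 genes found, and without the filter the groups did not overlap in 7.14% of all genes. Both were named for this, which fixes the exact p at 0.1 in the permutation test. *Trbc2*, a constant region of the T cell receptor beta chain, was at 9.04 ± 1.96 FPKM (SD, n = 3) in WT and 10.6 ± 2.24 FPKM (SD, n = 3) in PCdel adenomas. *Tcf7*, a T cell transcription factor that epithelial cells with active Wnt signalling also make, was at 14.5 ± 2.55 FPKM (SD, n = 3) in WT and 16.9 ± 1.32 FPKM (SD, n = 3) in PCdel adenomas. The median log2 fold change of the tested genes was 0.11.

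In the cytotoxic list 7 of the 15 genes found were tested and 0 passed the adjusted threshold or had an unadjusted p under 0.05. *Srgn*, the granule proteoglycan serglycin made by many leukocytes, was at 31.1 ± 3.77 FPKM (SD, n = 3) in WT and 33.4 ± 7.77 FPKM (SD, n = 3) in PCdel adenomas. Below the filter, *Fasl*, *Klrk1* and *Ifng* had no overlap between the groups, each with the PCdel libraries higher. These were 3 of the 15 genes found, and without the filter the groups did not overlap in 7.14% of all genes. All 3 lay under 0.5 FPKM in every library, each with adjusted p = 0.991 by limma without the filter. Unadjusted p in that limma fit was 0.041 (*Fasl*), 0.051 (*Klrk1*) and 0.0087 (*Ifng*), where 3.59% of all genes were under 0.05. The 3 genes were named for their separation, so these values are not a separate test. *Fasl*, a death ligand, was at 0.0912, 0.139 and 0.365 FPKM in the WT libraries and at 0.452, 0.395 and 0.371 FPKM in the PCdel libraries. *Ifng*, the main cytokine of type 1 T cells, was listed at 0 in WT libraries QC5 and QC6 and at 0.0487 FPKM in QC4, and at 0.130, 0.0748 and 0.0959 FPKM in PCdel libraries QC3, QC8 and QC10.

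Of 20 IEL homing, residency and partner genes, 18 were tested, 0 passed the adjusted threshold and 0 had an unadjusted p under 0.05, with 14 above and 4 below 0. *Cdh1*, the E-cadherin that the alphaE integrin binds, was at 211.2 ± 46.6 FPKM (SD, n = 3) in WT and 209.4 ± 13.9 FPKM (SD, n = 3) in PCdel adenomas. *Ccl25*, the epithelial chemokine that draws T cells with the receptor CCR9 to the small intestine, was at 112.7 ± 33.9 FPKM (SD, n = 3) in WT and 113.5 ± 35.2 FPKM (SD, n = 3) in PCdel adenomas. *Il7*, a growth factor of T cells, was below the filter, at 0.240, 0.330 and 0.293 FPKM in WT libraries QC4, QC5 and QC6 and at 0.553, 0.926 and 1.15 FPKM in PCdel libraries QC3, QC8 and QC10. Every PCdel value of *Il7* was above every WT value, and *Il7* was named for this. Any gene separated in this way has p = 0.1 in the exact two-sided permutation test, so that value adds nothing. By limma without the filter its unadjusted p was 0.0064, where 3.59% of all genes were under 0.05, and its adjusted p was 0.991. It was 1 of the 20 genes found in the list, and without the filter the groups did not overlap in 7.14% of all genes.

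Of 10 regulatory T cell genes 5 were tested, and 0 passed the adjusted threshold or had an unadjusted p under 0.05. *Entpd1*, an ectoenzyme of regulatory T cells and of vessels, was at 5.56 ± 2.42 FPKM (SD, n = 3) in WT and 5.31 ± 1.87 FPKM (SD, n = 3) in PCdel adenomas. *Tigit*, an inhibitory receptor, was at 2.87 ± 0.601 FPKM (SD, n = 3) in WT and 3.74 ± 0.177 FPKM (SD, n = 3) in PCdel adenomas, with overlap. *Ctla4*, the inhibitory receptor that regulatory T cells hold at high levels, was below the filter, at 0.643, 0.557 and 0.783 FPKM in the WT libraries and at 1.27, 1.01 and 0.823 FPKM in the PCdel libraries. *Ctla4* did not overlap between the groups while *Foxp3* did. By limma without the filter *Ctla4* had an unadjusted p of 0.039, where 3.59% of all genes were under 0.05, and an adjusted p of 0.991. *Ctla4* was named for its lack of overlap, as 1 of the 10 genes found, and without the filter the groups did not overlap in 7.14% of all genes. Of 18 helper T cell factors and cytokines 4 were tested, all above 0 and 0 past either threshold. In this list *Maf*, a transcription factor of several T cell subsets and of macrophages, was at 11.7 ± 0.721 FPKM (SD, n = 3) in WT and 13.9 ± 1.70 FPKM (SD, n = 3) in PCdel adenomas. *Il22* was listed at 0 in all 6 libraries.

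Markers of other cells give the setting of these values. Of the natural killer and innate lymphoid list, *Ncr1* was at most 0.115 FPKM, *Eomes* at most 0.119 FPKM and *Klre1* at most 0.429 FPKM, and *Klra8* was listed at 0 in all libraries. The list also holds genes of other leukocytes at higher levels, and its 10 genes summed to 106.2 to 115.0 FPKM in WT and 121.0 to 133.95 FPKM in PCdel libraries. Its highest genes were *Id2* (mean of 50.1 FPKM over the 6 libraries), *Tyrobp* (33.1 FPKM) and *Fcer1g* (26.7 FPKM). For this sum too, no share over other genes was computed. The part of natural killer cells in the granzyme values was not tested. In that list *Id2*, a factor of innate lymphoid cells that epithelium also makes, was at 45.4 ± 3.95 FPKM (SD, n = 3) in WT and 54.8 ± 2.01 FPKM (SD, n = 3) in PCdel adenomas without overlap (adjusted p = 1.0 by limma). It was 1 of the 10 genes found, and without the filter the groups did not overlap in 7.14% of all genes. *Tyrobp*, a signalling adaptor of innate lymphoid and myeloid cells, was at 31.2 ± 2.47 FPKM (SD, n = 3) in WT and 35.0 ± 3.98 FPKM (SD, n = 3) in PCdel adenomas. Of the B cell and follicle list, *Cr2* was at most 0.014 FPKM, *Cd79a* was at 12.9 ± 3.33 FPKM (SD, n = 3) in WT and 13.0 ± 0.958 FPKM (SD, n = 3) in PCdel adenomas, and the 13 genes summed to 20.3 to 27.7 FPKM in WT and 23.2 to 27.3 FPKM in PCdel libraries. All 6 pan-leukocyte genes had a log2 fold change above 0, with a median of 0.23, and 0 passed either threshold. The mast cell list ran the other way, with 6 of 6 genes below 0, a median of -0.58 and 0 past either threshold. The mast cell protease *Mcpt1* was at 140.1 to 605.4 FPKM within the PCdel group alone.

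**Figure D5:**
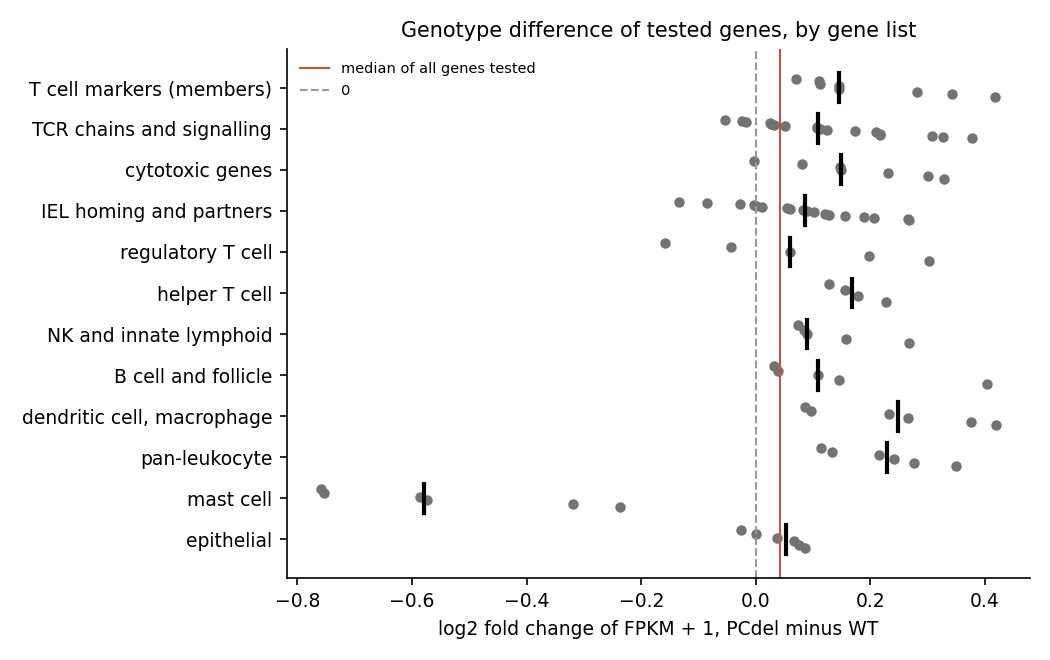
log2 fold change of FPKM + 1 (ApcMin, PCdel minus ApcMin, WT) of each tested gene (grey points) by gene list, with the median of the list (black bar) and of all genes tested (red line, 0.042). The members have a median of 0.14, the pan-leukocyte genes 0.23 and the mast cell genes -0.58; no point passed the adjusted threshold.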

How the data were processed

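RNA-seq of adenoma tissue was analysed for 6 libraries, 3 per genotype. The authors prepared libraries with the TruSeq RNA kit, sequenced them on a HiSeq2500 and named CLC Genomics Workbench 7 for alignment and a MatLab normalization. The program, annotation and build behind the tables are not given in the sources used here, and 87.7% of gene positions matched GENCODE M21 (GRCm38) exactly. The authors deposited FPKM per gene and library, TPM scaled to a fixed sum, and unscaled read coverage. Read numbers were not derived, so depth is given as aligned gigabases, inferred from the ratio of coverage to FPKM.

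Separate entries of 1 gene were summed. The functions lmFit and eBayes (with trend) of limma 3.58.1, run in R 4.3.3, were fitted to log2(FPKM + 1) across 14240 genes, and were tested on simulated data. The pseudocount of 1 understates changes of low genes. Members and lists were chosen with earlier results of these data known. Named genes are the members, the 2 highest of each list, up to 4 per list whose groups did not overlap, and *Ptprc*, *Epcam* and the Paneth cell genes. Some genes under this rule are not reported here. Other genes were named after their values were seen. Alternatives were another pseudocount, filters, TPM, quantile and median scaling, totals without immunoglobulin and defensin genes, no trend, array weights, a Y-linked score, and each library left out. The labels do not say whether libraries of a genotype came from separate mice.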

Additional observations from a re-analysis of the deposited data

How the results depend on the processing

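No paired analysis was possible because the labels give no litter or cage. The study's methods name littermates as controls, and its tumor experiments housed the genotypes together. Under the 16 alternatives, 0 members passed the adjusted threshold in each, and the adjusted p of a member lay between 0.354 (*Cd4* with array quality weights) and 1.0. The log2 fold changes of *Cd4* and *Cd8a* stayed above 0 in all their alternatives, from 0.24 to 0.52 and from 0.17 to 0.75. With each library left out in turn, 12 of 60 member values turned below 0. The ranges were -0.037 to 0.25 (*Cd3d*), -0.13 to 0.43 (*Cd3e*), -0.21 to 0.52 (*Cd3g*), -0.11 to 0.21 (*Cd8b1*), -0.27 to 0.85 (*Gzma*), -0.24 to 0.59 (*Gzmb*), -0.15 to 0.23 (*Itgae*) and -0.069 to 0.15 (*Foxp3*). Of the 91 member values under other alternatives, 1 turned, *Itgae* at -0.0043 with quantile normalization.

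Members above 0 numbered 2 to 8 of 8 with each library left out (2 without WT library QC4), and 3 at a minimum mean FPKM of 5, where 3 were tested. Members with an unadjusted p under 0.05 numbered 2 with array quality weights (*Cd4* and *Cd8a*), which gave QC6 a weight of 0.237, and 0 to 3 with each library left out. Members whose groups did not overlap numbered 0 to 4 (4 without QC6). Genes called over the whole table numbered 2, 3 with array quality weights, 1 without the filter, 1 with median centring, and 1 to 5 with each library left out (5 without WT library QC4). Genes with an unadjusted p under 0.05 numbered 481, and 1270 with array quality weights, 820 without QC6, 976 with no filter and 260 when the filter was set at 5 FPKM. Of these 481, 79.8% were higher in PCdel adenomas, as were 58.9% of such genes with quantile normalization and 61.4% with median centring. The cause of these shifts was not tested. Inferred aligned sequence was 5.642 to 5.715 gigabases in WT and 5.407 to 5.876 gigabases in PCdel libraries, and *Foxp3* and *Cd8b1* had low coverage.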

Other observations

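*Il2*, the T cell growth factor, was listed at 1.63 FPKM in PCdel library QC3 and at 0 in the other 5 libraries, a gene singled out after its values were seen. The receptor genes of gamma delta T cells, also named after their values were seen, were present in every library. *Tcrg-C1* was at 2.10, 3.85 and 7.17 FPKM in WT libraries QC4, QC5 and QC6 and at 5.54, 3.16 and 3.82 FPKM in PCdel libraries QC3, QC8 and QC10, and *Trdc* was at 0.456 to 1.37 FPKM over the 6 libraries, both lowest in QC4 and highest in QC6. The alpha chain constant region *Trac* was at 5.20, 8.75 and 10.1 FPKM in the WT libraries and at 7.97, 7.99 and 9.47 FPKM in the PCdel libraries, with the same lowest and highest library.

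The 4 epithelial butyrophilin-like genes of the IEL list, of which *Btnl1* and *Btnl6* are known to sustain gamma delta IELs, were also looked at after their values were seen. All 4 were highest in QC6, at 85.8 FPKM for *Btnl1*, 36.0 FPKM for *Btnl2*, 28.9 FPKM for *Btnl4* and 129.0 FPKM for *Btnl6*. *Btnl2* (18.5 FPKM) and *Btnl4* (17.7 FPKM) were lowest in QC4, while *Btnl1* was lowest in QC8 (45.4 FPKM) and *Btnl6* in QC5 (56.2 FPKM).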
